A study of Mus musculus with 4 samples.

Results

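Mast cells of the skin are marked here by 8 genes: the granule proteases Cma1, Mcpt4, Tpsb2 and Cpa3, the IgE receptor subunits Fcer1a and Ms4a2, the histamine-forming enzyme Hdc and the growth factor receptor Kit. They were chosen by symbol as genes of connective tissue mast cells, and all 8 were found among the 23238 gene symbols of the deposited tables. The material was whole skin of adult C57BL/6 mice, with 1 library in each of 4 groups: Egr1-/- mice treated with SDS and house dust mite (HDM) cream, Egr1+/+ mice treated the same way, naive Egr1-/- mice and naive Egr1+/+ mice. The neck and ears were shaved and painted with sodium dodecyl sulfate (SDS), a detergent that damages the skin barrier, and 100 mg of HDM cream followed, on 2 days a week over 3 weeks. Naive libraries carry SDS alone as their treatment, so both treatment groups share the detergent. The Egr1-/- line was kept on a C57BL/6 background and its litters were typed by PCR. The labels give neither the number of mice behind a library nor the piece of skin taken. The study concerned EGR1, a zinc finger transcription factor, in an HDM model of atopic dermatitis.

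Mast cells settle in the dermis as precursors, mature there under stem cell factor acting on the receptor KIT, and store histamine and proteases in granules bound to heparin. Allergen that cross-links IgE on the high-affinity IgE receptor, made of an alpha subunit (Fcer1a), a beta subunit (Ms4a2) and a shared gamma subunit (Fcer1g), makes them release these granules. In mice, connective tissue mast cells carry the chymases encoded by Cma1 and Mcpt4, the tryptase encoded by Tpsb2 and carboxypeptidase A3, while Mcpt1 and Mcpt2 mark mucosal mast cells. Kit is also expressed by melanocytes, and Hdc also by neutrophils and other myeloid cells.

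Each deposited value is log2(x + 1), where x is a read number that the authors scaled between libraries. The reads behind it were recovered from the steps between low values, and the libraries held 9444767 to 10130400 reads. In the naive library labelled KO, 336 genes stood at 0 that had 50 or more reads in each other library, against 0 to 5 such genes in the other libraries, so a 0 there is not read as absence. Both HDM libraries had 2195 or more Xist reads and 1 read of Ddx3y, and both naive libraries had 1925 or more Ddx3y reads and up to 40 of Xist. HDM treatment and the sex-linked transcripts therefore cannot be told apart in any HDM comparison. Egr1 itself had 3494 reads in the HDM library labelled KO and 1174 in WT HDM, and 3159 reads in the naive library labelled KO and 1966 in WT naive. It was not lower in the libraries labelled KO, although a 3′ tag outside the deleted part would check nothing, so these are called KO-labelled throughout and every genotype direction rests on the label. A library has no replicate, so intervals below cover counting error only.

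All 8 genes were read in WT HDM, KO-labelled HDM and WT naive skin, and Fcer1a was at 0 in KO-labelled naive skin. The 4 protease genes together had 6509 to 9459 reads in each library, and the mucosal protease genes Mcpt1 and Mcpt2 reached at most 3 reads. In a bulk library fewer mast cells and less RNA per cell cannot be told apart. An expression filter (mean log2 value above 5.10, the median of all lines) kept 11624 genes and 7 of the 8 mast cell genes. Fcer1a, with a mean of 3.76, did not pass it and is described by its reads.

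**Figure D1:**
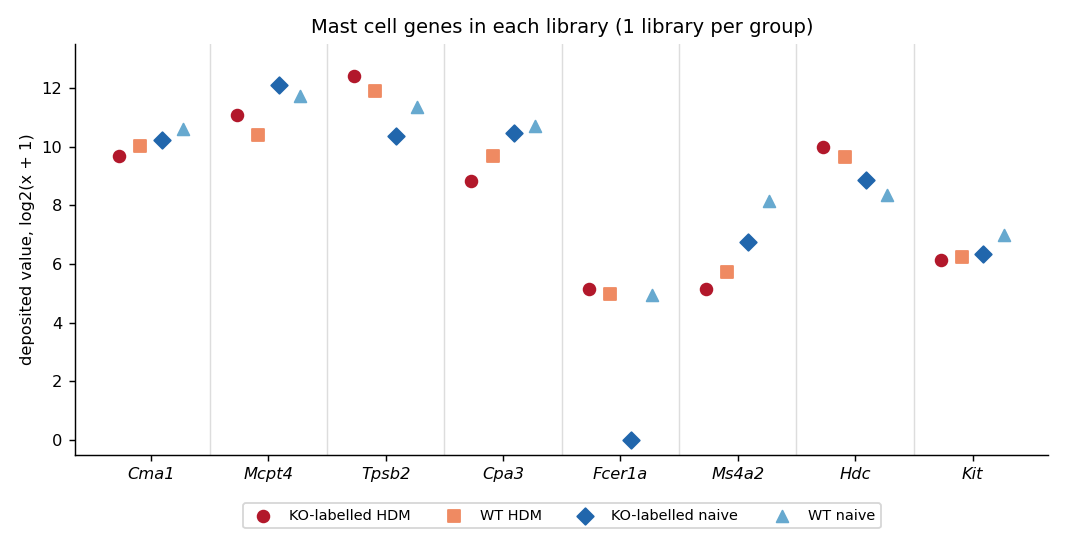
Deposited log2(x + 1) value of each of the 8 mast cell genes (x axis) in the 4 libraries, 1 point per library and no error bars because no group has a replicate. Tpsb2 and Hdc sit higher in both HDM libraries, Cma1, Mcpt4, Cpa3 and Ms4a2 sit lower in both, and Fcer1a is at 0 in KO-labelled naive skin.

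Among the 7 mast cell genes that passed the filter, HDM and naive skin were split in opposite directions. Tpsb2 and Hdc were higher in both HDM libraries than in both naive ones, and Cma1, Mcpt4, Cpa3, Ms4a2 and Kit were lower. The HDM and naive libraries thus did not overlap for 7 of 7 genes, and over all genes that passed the filter they did not overlap for 57.0%. In KO-labelled skin, 2 of the 7 genes were 2-fold or more higher under HDM (Tpsb2 and Hdc) and 3 were 2-fold or more lower (Mcpt4, Cpa3 and Ms4a2), against 21.8% higher and 18.3% lower over all genes. In WT skin, 1 was higher (Hdc) and 3 were lower (again Mcpt4, Cpa3 and Ms4a2), against 14.5% higher and 12.8% lower over all genes. The median log2 difference of the 7 genes was -0.55 in KO-labelled skin, where that of all genes was 0.06, and -0.76 in WT skin, where that of all genes was 0.03.

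Mcpt4 encodes mMCP-4, the main chymase of skin mast cells. It had 2308 reads in KO-labelled HDM skin and 1254 in WT HDM skin, against 4680 in KO-labelled naive and 3245 in WT naive skin. Both HDM libraries were below both naive ones, and within each treatment the KO-labelled library was the higher. On the deposited scale Mcpt4 was 2.02-fold lower under HDM in the KO-labelled pair of libraries (95% interval 1.92 to 2.13) and 2.54-fold lower in the WT pair (2.37 to 2.71). The gene lies at chr14:56059629-56062313 on the minus strand (mm10).

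Cma1, in the same cluster of protease genes at chr14:55941451-55944675 on the minus strand, encodes mMCP-5, a member of the chymase family with elastase-like activity in the mouse. It had 873 reads in KO-labelled HDM and 955 in WT HDM skin, against 1283 in KO-labelled naive and 1464 in WT naive skin. Its order over the libraries was the same as for Cpa3, but both HDM differences stayed under 2-fold. It was 1.47-fold lower under HDM in the KO-labelled pair (1.34 to 1.60) and 1.50-fold lower in the WT pair (1.38 to 1.63).

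Cpa3 encodes carboxypeptidase A3, which is stored with Cma1 protein in the granule. Its reads numbered 482 in KO-labelled HDM and 763 in WT HDM skin, against 1502 in KO-labelled naive and 1590 in WT naive skin. The naive libraries lay close together and the HDM libraries apart, with the KO-labelled one lowest. Cpa3 was 3.11-fold lower under HDM in the KO-labelled pair (2.80 to 3.45) and 2.04-fold lower in the WT pair (1.87 to 2.23). It lies at chr3:20215620-20242181 on the minus strand, and a microRNA gene, Mir7007, lies within it away from its 3′ end.

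Tpsb2, which encodes the tryptase mMCP-6, was the protease that went the other way. It had 5796 reads in KO-labelled HDM and 3537 in WT HDM skin, against 1414 in KO-labelled naive and 2449 in WT naive skin. The KO-labelled libraries were both the highest and the lowest of the 4. Under HDM it was 4.11-fold higher in the KO-labelled pair of libraries (3.88 to 4.36) and 1.47-fold higher in the WT pair (1.40 to 1.55). Tpsb2 lies at chr17:25366305-25369098 on the plus strand.

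The tryptase and chymase genes have close relatives whose reads could be shared. The last 200 bases of the transcripts of Tpsb2 and its relative Tpsab1 were up to 60.0% identical in the GENCODE M21 annotation. That identity was up to 53.5% between Mcpt4 and Mcpt9 and 52.0% between Cma1 and Cma2. The longest identical run, sought over the whole transcripts, was 39 bases for Tpsb2 and Tpsab1. It was 56 bases for Mcpt4 and Mcpt9 and 21 for Cma1 and Cma2. Whether these runs lie near the 3′ end was not recorded. How the authors counted reads that match more than 1 place is not given in the sources used here, and whether these genes exchanged reads was not tested. Tpsab1 had 42 reads in KO-labelled HDM and 84 in WT HDM skin, against 0 in KO-labelled naive and 23 in WT naive skin, far under the Tpsb2 reads in each library. It was 3.73-fold higher under HDM in WT skin (2.33 to 6.20). Tpsab1 encodes mMCP-7 and carries a splice defect in C57BL/6 mice. Of the other relatives, Cma2 had 3 to 14 reads, Mcpt9 at most 1 and Mcpt1 none in any library.

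Hdc encodes histidine decarboxylase, the enzyme that makes histamine. It had 1076 reads in KO-labelled HDM and 750 in WT HDM skin, against 495 in KO-labelled naive and 310 in WT naive skin. Both HDM libraries were above both naive ones, and the KO-labelled library was the higher within each treatment, as for Mcpt4. Hdc was 2.18-fold higher under HDM in the KO-labelled pair (1.96 to 2.43) and 2.47-fold higher in the WT pair (2.16 to 2.83). It lies at chr2:126593667-126619299 on the minus strand.

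The neutrophil markers Cxcr2, S100a8 and S100a9 were higher under HDM in both pairs. They passed the filter on a mean raised by their HDM values, so no share of all genes is set beside them. Of the others, Ngp had 9 reads in KO-labelled HDM and 5 in WT HDM skin, against 0 in KO-labelled naive and 10 in WT naive skin, and so was lower under HDM in the WT pair. The 6 neutrophil markers in the tables summed to 76839.6 in KO-labelled HDM and 199434.6 in WT HDM skin on the deposited linear scale, against 3.7 in KO-labelled naive and 582.9 in WT naive skin. Most of that sum was S100a8 and S100a9, which keratinocytes also express. Of the more specific markers, Cxcr2, a chemokine receptor of neutrophils, had 163 reads in KO-labelled HDM and 196 in WT HDM skin, against 3 in KO-labelled naive and 16 in WT naive skin. None of the 6 markers was at 0 in the HDM libraries, while 4 were at 0 in KO-labelled naive skin and 1 in WT naive skin. Over all 23203 genes, 10346 were at 0 in KO-labelled naive and 7679 in WT naive skin. In the HDM libraries 7028 (KO-labelled) and 6691 (WT) were at 0. The part of neutrophils in the Hdc difference was not tested.

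Ms4a2 encodes the beta subunit of the IgE receptor, which amplifies its signal. It had 37 reads in KO-labelled HDM and 48 in WT HDM skin, against 113 in KO-labelled naive and 268 in WT naive skin. Both HDM libraries were low, and WT naive skin stood above the other libraries. Ms4a2 was 3.04-fold lower under HDM in the KO-labelled pair (2.08 to 4.54) and 5.47-fold lower in the WT pair (4.01 to 7.60). It lies at chr19:11615523-11623719 on the minus strand.

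Fcer1a, the alpha subunit that binds IgE, had 37 reads in KO-labelled HDM and 28 in WT HDM skin, against 0 in KO-labelled naive and 28 in WT naive skin. WT skin thus gave the same read number with and without HDM, with a ratio of 1.02 (0.583 to 1.79) on the deposited scale. Against the limit of 3 reads that a count of 0 allows, Fcer1a was at least 12.4-fold higher in KO-labelled HDM than in KO-labelled naive skin. That bound rests on the library with 336 unusual zeros. Fcer1a lies at chr1:173221284-173227214 on the minus strand. The shared subunit Fcer1g, which other myeloid cells also express, had 406 reads in KO-labelled HDM and 675 in WT HDM skin, against 912 in KO-labelled naive and 569 in WT naive skin.

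Kit, the receptor of stem cell factor at chr5:75574916-75656722 on the plus strand, had 74 reads in KO-labelled HDM and 69 in WT HDM skin, against 85 in KO-labelled naive and 120 in WT naive skin. WT naive skin was the highest and the other libraries lay close together. Kit was 1.15-fold lower under HDM in the KO-labelled pair, where the interval included no difference (0.829 to 1.59), and 1.70-fold lower in the WT pair (1.26 to 2.33). The summed level of the 8 melanocyte markers was 4787.0 in KO-labelled HDM and 1718.1 in WT HDM skin, against 3326.2 in KO-labelled naive and 4237.5 in WT naive skin. At 0 reads were 0 markers in KO-labelled HDM skin and 2 in each other library, among them Slc45a2 in all of those. Over all 23203 genes, 6691 (WT HDM) to 10346 (KO-labelled naive) were at 0 in a library. The part of melanocytes in the Kit values was not tested.

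**Figure D2:**
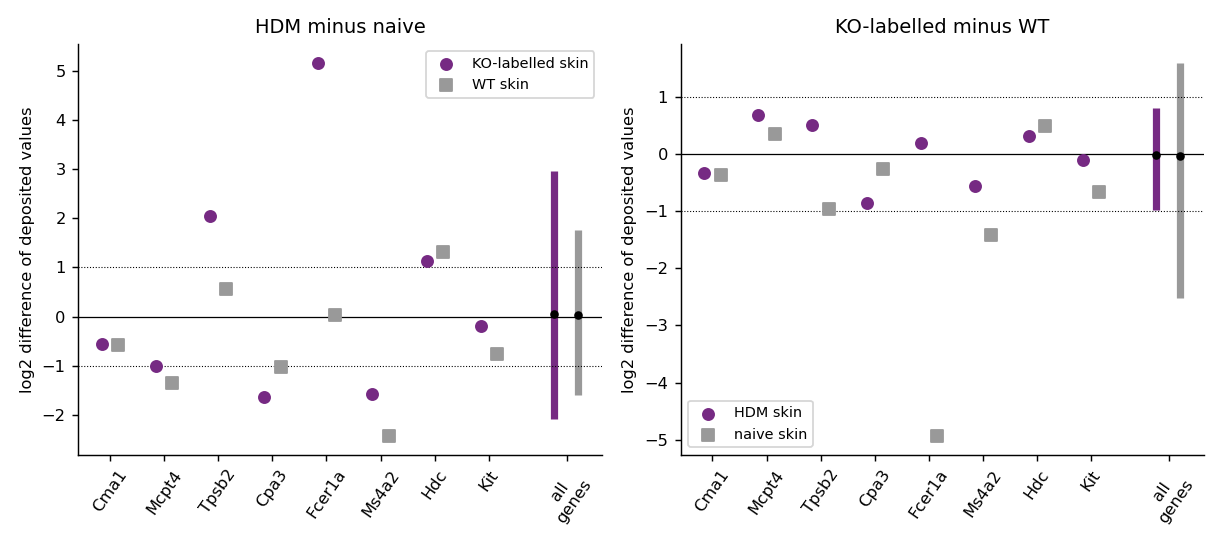
Difference of deposited log2 values per gene, HDM minus naive in one panel and KO-labelled minus WT in the other, 1 point per pair of libraries, with dotted lines at the 2-fold limits and, at the right, vertical bars over the 5th to 95th percentile of all genes that passed the filter, with their median as a dot. Mcpt4, Cpa3 and Ms4a2 lie below the lower limit in both HDM differences, Hdc lies above the upper limit in both, and Tpsb2 lies above it in KO-labelled skin, while the far Fcer1a points (5.16 and -4.93) are set by its 0 reads and the pseudocount of 1.

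Set against each other within a library, these genes had different shares in HDM and naive skin, a comparison that does not depend on the scaling between libraries. Tpsb2 gave 54.3% of the summed reads of the 8 genes in KO-labelled HDM (exact 95% interval 53.3 to 55.2) and 47.8% in WT HDM skin (46.6 to 48.9), against 14.8% in KO-labelled naive (14.1 to 15.5) and 25.8% in WT naive skin (25.0 to 26.7). Mcpt4 gave 21.6% in KO-labelled HDM and 16.9% in WT HDM skin, against 48.9% in KO-labelled naive and 34.3% in WT naive skin. The 8 genes together had 10683 reads in KO-labelled HDM and 7404 in WT HDM skin, against 9572 in KO-labelled naive and 9474 in WT naive skin. On the deposited scale that sum was 1.12-fold higher under HDM in KO-labelled skin (1.09 to 1.15) and 1.25-fold lower in WT skin (1.22 to 1.29). The sum differed less than Tpsb2, Mcpt4 and Cpa3 did, with the tryptase higher while the chymase and carboxypeptidase were lower. Hdc gave 10.1% in both HDM libraries, against 5.17% in KO-labelled naive and 3.27% in WT naive skin.

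**Figure D3:**
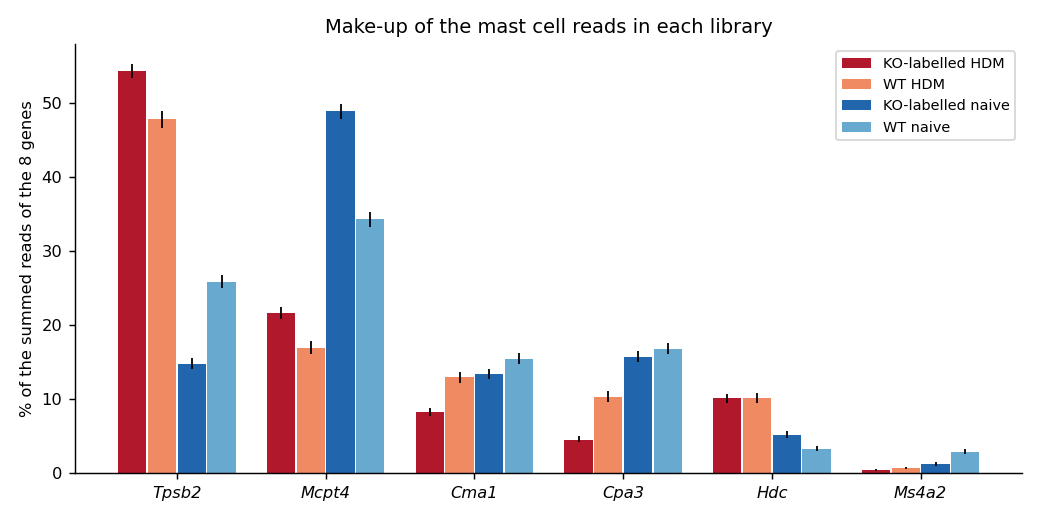
Share of 6 of the mast cell genes (x axis) in the summed reads of all 8 (y axis, percent) in each library, with exact 95% intervals for counting error as error bars. Tpsb2 has the tallest bar in the HDM libraries (54.3% in KO-labelled and 47.8% in WT skin), and Mcpt4 has it in the naive ones (48.9% in KO-labelled and 34.3% in WT skin).

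Between genotypes as labelled, fewer of the 7 genes were 2-fold or more apart. In HDM skin, none of the 7 genes that passed the filter was 2-fold or more apart between KO-labelled and WT, against 3.06% of all genes higher and 4.67% lower. Mcpt4 was 1.60-fold higher in KO-labelled HDM skin (1.50 to 1.72), Tpsb2 1.43-fold higher (1.37 to 1.49) and Hdc 1.25-fold higher. Cpa3 was 1.82-fold lower (1.62 to 2.04) and Cma1 1.26-fold lower. For Ms4a2, Kit and Fcer1a the intervals included no difference (0.950 to 2.35-fold lower for Ms4a2, 0.760 to 1.51-fold lower for Kit and 0.686 to 1.95-fold higher for Fcer1a).

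In naive skin, 1 of the 7 genes was 2-fold or more lower in KO-labelled skin (Ms4a2) and none was higher, against 17.1% lower and 13.7% higher over all genes. Ms4a2 was 2.68-fold lower (2.14 to 3.36) and Tpsb2 1.95-fold lower (1.83 to 2.09), just inside the 2-fold limit. Kit was 1.59-fold lower, Cma1 1.29-fold lower and Cpa3 1.19-fold lower, while Mcpt4 was 1.28-fold and Hdc 1.42-fold higher. Fcer1a was at least 10.5-fold lower, again through the 0 in KO-labelled naive skin and with its WT reads taken as exact. By sign alone, the KO-labelled difference pointed opposite ways in HDM and naive skin for Tpsb2 and Fcer1a. For Kit it was near no difference in HDM skin (-0.097 on the log2 scale). How many of all genes kept their sign was not counted. These differences compare single libraries and not genotypes.

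An additive model over all 4 libraries, with a treatment term and a genotype term, was the only test the design allowed. Each gene leaves it 1 residual degree of freedom, which is its departure from additivity, and the rest of its error is shared across genes. Its standard errors and p-values therefore do not measure variation between mice. The treatment term also cannot be told apart from the difference in sex-linked transcripts. For the treatment term, limma called none of the 7 mast cell genes at a Benjamini-Hochberg adjusted p under 0.05, against 4.11% of all genes. At an unadjusted p under 0.05 the fit had 5 of the 7 genes, against 2368 of 11624 genes. The effects of HDM were -1.18 ± 0.31 (SE) for Mcpt4 with an adjusted p of 0.0768, -1.33 ± 0.35 for Cpa3 with 0.0777, 1.30 ± 0.39 for Tpsb2 with 0.112 and 1.21 ± 0.38 for Hdc with 0.118. Ms4a2 had -2.004 ± 0.82 with an adjusted p of 0.215, Cma1 -0.57 ± 0.33 with 0.373 and Kit -0.48 ± 0.82 with 0.787, all from limma. Without the expression filter, which adds genes at or near 0 to the fit, 4 of the mast cell genes passed in limma. Over all genes, 1293 of the 17633 tested passed in that setting. The adjusted p-values from limma there were 0.00407 for Cpa3, 0.00564 for Tpsb2, 0.0141 for Mcpt4 and 0.029 for Hdc. Without the intensity trend those of Cpa3, Tpsb2, Mcpt4 and Hdc reached 0.332, 0.374, 0.339 and 0.332 in limma.

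For the genotype term, limma called none of the mast cell genes, against 0.0% of all genes (0 of 11624, with 382 at an unadjusted p under 0.05 and 0 of the 7 among them). The largest genotype effect among the 7 genes was -0.99 for Ms4a2, lower in KO-labelled skin.

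The promoter windows of the mast cell genes are shown because GATA2 and MITF, factors of mast cell identity, and EGR1, the factor of this study, bind known short motifs. RefSeq windows (GRCm38.p6, 250 bases before to 50 after the transcription start) were matched for 7 of the 8 genes. GATAA, the core of the GATA motif, was searched on both strands and was found in 5 of the 7, namely Mcpt4, Cpa3, Ms4a2, Cma1 and Fcer1a, and in 25.4% of all 32851 windows. Many windows are richer in G and C than these, and among the 11343 windows with 41.0% to 51.67% GC, 34.3% held GATAA. Below, capitals mark GATAA or its reverse complement TTATC. All are read along the minus strand, on which the genes lie, for Mcpt4 (chr14:56062261-56062560), Cpa3 (chr3:20242132-20242431), Ms4a2 (chr19:11623670-11623969) and Hdc (chr2:126618629-126618928), which are the genes 2-fold or more apart under HDM in both WT and KO-labelled skin.
Mcpt4: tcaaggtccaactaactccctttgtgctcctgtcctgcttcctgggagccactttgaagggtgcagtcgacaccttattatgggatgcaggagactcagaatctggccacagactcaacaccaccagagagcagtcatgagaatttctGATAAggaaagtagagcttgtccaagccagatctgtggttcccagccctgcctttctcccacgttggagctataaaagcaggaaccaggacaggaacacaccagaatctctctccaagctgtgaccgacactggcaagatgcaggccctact
Cpa3: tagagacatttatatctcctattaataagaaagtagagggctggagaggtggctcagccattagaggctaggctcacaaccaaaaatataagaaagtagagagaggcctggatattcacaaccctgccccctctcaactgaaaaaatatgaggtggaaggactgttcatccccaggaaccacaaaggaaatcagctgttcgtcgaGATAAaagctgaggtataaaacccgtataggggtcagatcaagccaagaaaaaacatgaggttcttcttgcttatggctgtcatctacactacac
Ms4a2: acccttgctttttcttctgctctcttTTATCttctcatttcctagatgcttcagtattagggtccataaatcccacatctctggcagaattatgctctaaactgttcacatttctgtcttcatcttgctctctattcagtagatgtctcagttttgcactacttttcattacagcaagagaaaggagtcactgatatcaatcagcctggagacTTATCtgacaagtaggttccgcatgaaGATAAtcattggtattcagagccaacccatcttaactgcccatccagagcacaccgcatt
Hdc: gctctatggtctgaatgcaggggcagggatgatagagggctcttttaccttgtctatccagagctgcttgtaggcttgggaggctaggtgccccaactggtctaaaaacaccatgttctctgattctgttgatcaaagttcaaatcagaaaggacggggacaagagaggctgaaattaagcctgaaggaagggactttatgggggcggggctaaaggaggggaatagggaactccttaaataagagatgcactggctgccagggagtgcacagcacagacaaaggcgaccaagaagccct

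Mcpt4 and Cpa3 each hold 1 GATAA, at positions -102 and -45 from the start, and Ms4a2 holds 3, at -224, -37 and -10. Each of these was lower under HDM, and Cma1, also lower, holds 1 at -194. Fcer1a, which was not lower under HDM, holds 1 at -92. The windows of Hdc, which was higher, and of Kit, which was lower, have no match. That of Kit has a GC content of 69.0%. That of Hdc follows a RefSeq start inside the GENCODE span of the gene, so the GENCODE start lies outside the window. Tpsb2, also higher, was the gene without a matched window. Whether GATAA goes with the direction under HDM was not tested. CACATG, a motif of MITF that was also searched on both strands, was found only in Fcer1a among the 7, at -208, and in 14.2% of all windows. GCGNGGGCG, the core of the EGR motif, was found in none of the 7 and in 5.55% of all windows, or 0.388% of those with 41.0% to 51.67% GC. A match is a run of letters and not a bound site, and no match says nothing of a factor's binding elsewhere.

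Around these genes, other lists of the mast cell pathway were read, and limma called none of their genes for either term. The other mast cell proteases, 7 in all, had no member that passed the expression filter. Tpsg1, a tryptase anchored in the membrane, had 13 reads in KO-labelled HDM and 26 in WT HDM skin, against 96 in KO-labelled naive and 36 in WT naive skin, which was 7.36-fold lower under HDM in KO-labelled skin (4.11 to 14.3). Ctsg, which encodes cathepsin G and is shared with neutrophils, had 0 to 18 reads.

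Of 8 other surface receptors that passed the filter, KO-labelled skin had 2 that were 2-fold or more higher under HDM and 2 lower, beside 21.8% and 18.3% of all genes, and WT skin had 1 higher and none lower, beside 14.5% and 12.8%. Cd300a, an inhibitory receptor of mast cells and other myeloid cells, had 223 reads in KO-labelled HDM and 197 in WT HDM skin, against 1 in KO-labelled naive and 39 in WT naive skin. It was 5.16-fold higher under HDM in WT skin (3.64 to 7.47). Mrgprb2, the receptor through which mouse connective tissue mast cells answer basic peptides without IgE, had 16 reads in KO-labelled HDM and 24 in WT HDM skin, against 36 in KO-labelled naive and 55 in WT naive skin. It was 2.25-fold lower under HDM in WT skin (1.37 to 3.79), but it did not pass the filter. Mrgprb1, which passed, had 138 reads in KO-labelled HDM and 101 in WT HDM skin, against 51 in KO-labelled naive and 144 in WT naive skin. Mrgprb1 was thus higher under HDM in the KO-labelled pair and lower in the WT pair. Il1rl1, the receptor of interleukin 33, had 210 reads in KO-labelled HDM and 211 in WT HDM skin, against 294 in KO-labelled naive and 132 in WT naive skin.

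Of 9 genes of granule and histamine storage, the KO-labelled pair had 1 higher and 1 lower under HDM, with a median of -0.32, beside 21.8% and 18.3% of all genes. The WT pair had 3 higher and 1 lower, with a median of 0.03, beside 14.5% and 12.8%. Among genes of the list with at least 50 reads in 1 library, Unc13d differed most in the WT pair (-1.605 on the log2 scale). In the KO-labelled pair Sytl3, which did not pass the filter, and Ndst1 differed most (-2.976 and 2.803). Srgn, which encodes serglycin, the core protein that carries heparin in the granule, had 609 reads in KO-labelled HDM and 945 in WT HDM skin, against 567 in KO-labelled naive and 394 in WT naive skin. It was 2.45-fold higher under HDM in WT skin (2.17 to 2.76), and other blood cells express it too. Slc18a2, the transporter that loads histamine into granules, had 88 reads in KO-labelled HDM and 103 in WT HDM skin, against 174 in KO-labelled naive and 50 in WT naive skin. Hnmt, which breaks histamine down, had 129 reads in KO-labelled HDM and 62 in WT HDM skin, against 587 in KO-labelled naive and 325 in WT naive skin. Hnmt was 4.54-fold lower under HDM in the KO-labelled pair (3.74 to 5.53) and 5.14-fold lower in the WT pair (3.90 to 6.85), opposite to Hdc.

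Of 12 genes of IgE receptor signalling that passed the filter, the WT pair was the one with more differences. The KO-labelled pair had 2 that were 2-fold or more higher under HDM and 1 lower, with a median of 0.54, beside 21.8% and 18.3% of all genes. The WT pair had 7 higher and none lower, with a median of 1.49, beside 14.5% and 12.8% of all genes. Lcp2, the adaptor SLP-76, had 98 reads in KO-labelled HDM and 109 in WT HDM skin, against 76 in KO-labelled naive and 17 in WT naive skin. Plcg2, a phospholipase C, had 250 reads in KO-labelled HDM and 245 in WT HDM skin, against 186 in KO-labelled naive and 46 in WT naive skin. For both, the HDM libraries were close and WT naive skin was low. Syk, the kinase that the receptor recruits, had 138 reads in KO-labelled HDM and 190 in WT HDM skin, against 55 in KO-labelled naive and 51 in WT naive skin, 2.52-fold higher under HDM in KO-labelled skin (1.83 to 3.51). All 3 are shared with other blood cells, whose markers also differed. Of 7 macrophage markers, the WT pair had 4 higher under HDM and none lower, beside 14.5% and 12.8% of all genes. The KO-labelled pair had none higher and 3 lower, beside 21.8% and 18.3%. Of 5 dendritic and Langerhans cell markers that passed the filter, none was higher, and 2 were lower in the WT and 4 in the KO-labelled pair. The part of these cells in the signalling genes was not tested.

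**Figure D4:**
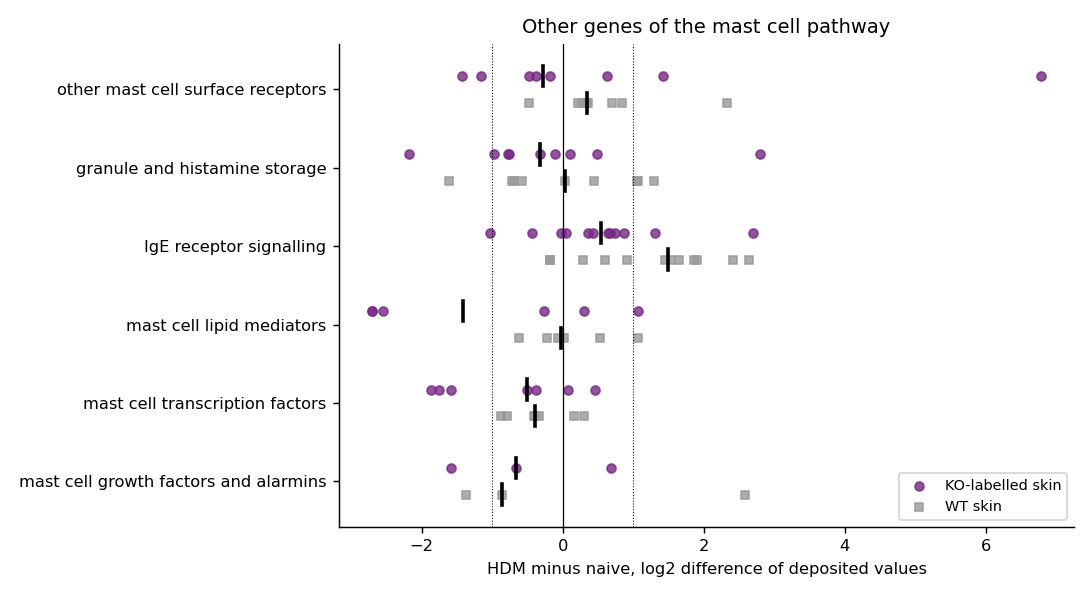
HDM minus naive difference of deposited log2 values for the genes of each mast cell pathway list that passed the expression filter, with KO-labelled and WT skin in separate colours, 1 point per gene, black bars at the medians and dotted lines at the 2-fold limits. In WT skin 7 of the 12 IgE receptor signalling genes lie above the upper limit and none lies below the lower one.

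Of 6 lipid mediator genes, the KO-labelled pair had 1 higher and 3 lower under HDM, beside 21.8% and 18.3% of all genes, and the WT pair had 1 higher and none lower, beside 14.5% and 12.8%. Ltc4s, which makes leukotriene C4, had 22 reads in KO-labelled HDM and 67 in WT HDM skin, against 149 in KO-labelled naive and 47 in WT naive skin. Alox5, the 5-lipoxygenase of the same pathway, had 53 reads in KO-labelled HDM and 133 in WT HDM skin, against 350 in KO-labelled naive and 208 in WT naive skin. In both cases KO-labelled naive skin was the highest and KO-labelled HDM skin the lowest. Hpgds, the prostaglandin D synthase of mast cells, had 455 reads in KO-labelled HDM and 348 in WT HDM skin, against 216 in KO-labelled naive and 350 in WT naive skin.

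Among 7 transcription factors of mast cells, the KO-labelled pair had 3 that were 2-fold or more lower under HDM and none higher, beside 18.3% and 21.8% of all genes. The WT pair had none in either direction, beside 12.8% lower and 14.5% higher. Gata2, which mast cells need, had 87 reads in KO-labelled HDM and 115 in WT HDM skin, against 264 in KO-labelled naive and 148 in WT naive skin. Tal1 had 54 reads in KO-labelled HDM and 80 in WT HDM skin, against 200 in KO-labelled naive and 107 in WT naive skin, and was 3.69-fold lower under HDM in KO-labelled skin (2.72 to 5.08). Both were lowest in KO-labelled HDM and highest in KO-labelled naive skin.

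Of the growth factors and alarmins, Il3, Il4 and Il9 had no reads in any library. Kitl, which encodes stem cell factor, the ligand of KIT, had 197 reads in KO-labelled HDM and 104 in WT HDM skin, against 314 in KO-labelled naive and 194 in WT naive skin. Il33, an alarmin of the epidermis that acts on mast cells, had 487 reads in KO-labelled HDM and 780 in WT HDM skin, against 304 in KO-labelled naive and 132 in WT naive skin. Il33 was 1.61-fold higher under HDM in the KO-labelled pair (1.39 to 1.86) and 6.03-fold higher in the WT pair (5.01 to 7.31). The alarmin Tslp went the other way. It had 20 reads in KO-labelled HDM and 29 in WT HDM skin, against 62 in KO-labelled naive and 78 in WT naive skin. Its log2 difference under HDM was -1.579 in the KO-labelled pair and -1.368 in the WT pair.

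Basophils share Fcer1a, Ms4a2, Hdc and Cpa3 with mast cells in part. Their protease Mcpt8 had 10 reads in KO-labelled HDM and 1 in WT HDM skin and none in the naive libraries, and Prss34 had 5 reads in KO-labelled HDM skin and none elsewhere. The summed level of the 6 basophil markers was 222.5 in KO-labelled HDM and 229.6 in WT HDM skin, against 247.1 in KO-labelled naive and 189.0 in WT naive skin, most of it Gata2 and Cd200r3, which mast cells also express. Within that sum, Gata2 was lower under HDM in both pairs and Cd200r3 and Itga2 were higher. Cd200r3 had 87 reads in KO-labelled HDM and 79 in WT HDM skin, against 0 in KO-labelled naive and 30 in WT naive skin. Itga2 had 48 and 18 reads in the same HDM libraries, against 0 and 1 in the naive ones. Il4 was at 0 in every library, and 5 of the 6 markers were at 0 in KO-labelled naive skin, where 10346 of all 23203 genes were.

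The tissue in the libraries differed as well. Fibroblast markers summed to 50884 in KO-labelled HDM and 70834.5 in WT HDM skin, against 373675 in KO-labelled naive and 191806 in WT naive skin. Most of that sum was Dcn and collagen genes. In the WT pair 1 of the 7 markers was 2-fold or more higher under HDM (Pdgfra) and 2 were lower, beside 14.5% and 12.8% of all genes. The KO-labelled pair had none higher and 4 lower, beside 21.8% and 18.3%. Salivary and lacrimal secretory genes summed to 149.3 in KO-labelled HDM and 740.5 in WT HDM skin, against 76905 in KO-labelled naive and 733970 in WT naive skin. Cartilage markers summed to 62.9 in KO-labelled HDM and 15377.5 in WT HDM skin, against 21031 in KO-labelled naive and 26465 in WT naive skin. The part of this difference in tissue in the mast cell values was not tested.

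**Figure D5:**
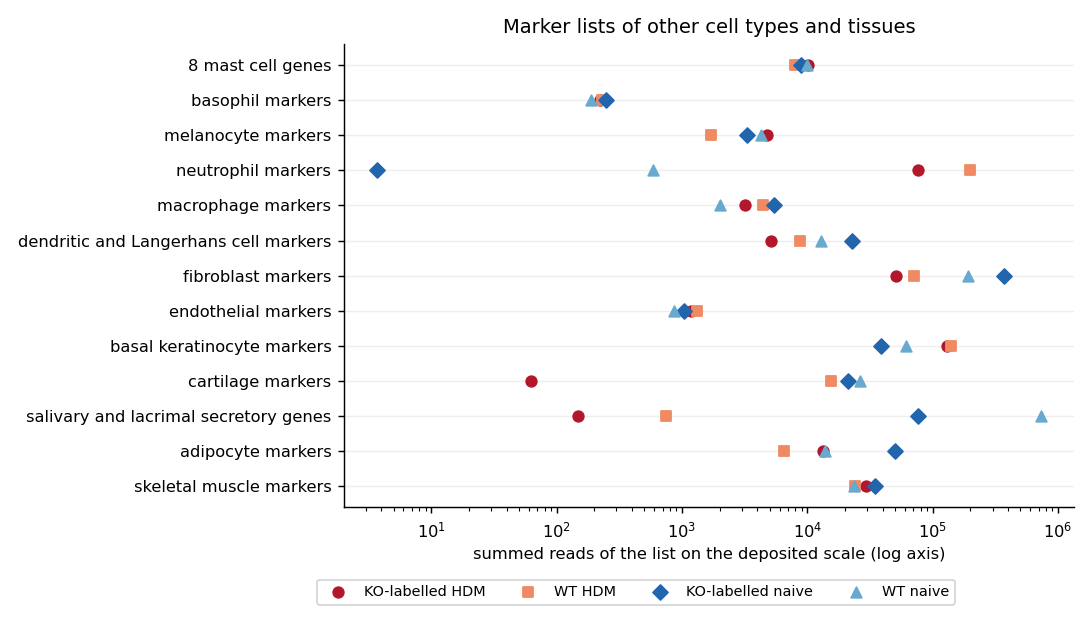
Summed deposited linear level (log axis) of the marker genes of each cell type or tissue in the 4 libraries, 1 point per library. The sum of the 8 mast cell genes lies between 7980.3 and 10029.3 in all libraries, while the sums of neutrophil, fibroblast and salivary markers differ far more between HDM and naive skin. A sum is set by its most abundant genes.

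No single profile described the 4 proteases. Their mean profile, centred on 0, ran -0.22 in KO-labelled HDM, -0.22 in WT HDM, 0.07 in KO-labelled naive and 0.38 in WT naive skin on the log2 scale. Cma1 lay 0.134 from it (root mean square distance over the 4 libraries) and Kit 0.132, but Mcpt4 lay 0.497, Cpa3 0.538 and Tpsb2 0.9205 away. The nearest genes outside the 8 were Maf at 0.0181, Ctdsp2 at 0.0231, Exog and Tsen15 at 0.0309 and Fxyd3 at 0.038, and 1337 of 11617 genes lay within 0.25. With 4 libraries and so many genes that near, this likeness is a description of these libraries.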

How the data were processed

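The authors deposited 1 table per library with log2 values for 23282 lines of gene symbols. Libraries had been made with the Lexogen QuantSeq 3′ kit from 500 ng of Trizol-extracted RNA, per the labels' protocols. Per the submitters' processing notes Bowtie2, bedtools and mm10 were used, in roles and versions that are not stated, and the normalization is not given in the sources used here. Values minus 1 after conversion from log2 fell on multiples of 1 step per library. Dividing by it gave reads that were whole within 0.1 read for 98.9% (KO-labelled HDM), 98.8% (WT HDM), 95.7% (KO-labelled naive) and 99.1% (WT naive) of genes with up to 200 reads.

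Ratios are of recovered reads on the deposited scale, with exact 95% Clopper-Pearson intervals conditional on the summed reads. A count of 0 allows up to 3 reads, and a limit built on it takes the reads of the other library as exact. Reads carry no molecular identifiers, so intervals and limits cover counting error only. Symbols on more than 1 line (35 symbols, 79 lines) were left out. The size rule was 2-fold, or 1 on the log2 scale, and with 1 library per group it has no p-value. Limma 3.58.1 (R 4.3.3) fitted treatment and genotype terms to the log2 values of 11624 genes with an intensity trend and Benjamini-Hochberg adjustment over all of them, and was tested on simulated data. Python 3.11.15 with pandas 2.3.3, numpy 2.4.6 and scipy 1.17.1 did the rest. Gene positions are from GENCODE M21.

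The 8 genes and all lists were chosen with earlier results of these data known. All 8 genes and any gene of a mast cell pathway list may be named with reads. A ratio is given for members, for their close relatives and for the 2 genes per list and comparison with the largest difference among those with at least 50 reads in 1 library. The genes of like pattern are the 5 nearest by root mean square distance. Other scalings, a pseudocount of 10 in place of 1, no expression filter and no intensity trend were tried.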

Additional observations from a re-analysis of the deposited data

Results flagged for a closer look

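For 2 genes the difference between the KO-labelled and WT libraries had one sign under HDM and the opposite sign in naive skin. The difference between the differences was not tested, since each group has 1 library. Tpsb2 was higher in KO-labelled than in WT skin under HDM, by 0.51 on the log2 scale, and its naive difference was -0.97, a gap of 1.479. For Fcer1a the HDM difference was 0.20, from 37 reads in KO-labelled and 28 in WT skin, and the interval of that ratio included no difference. Its naive difference was -4.93, a gap of 5.132. That gap is set by its 0 reads in KO-labelled naive skin and the pseudocount of 1, and with a pseudocount of 10 the naive difference was -1.98 and the gap 2.14.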

How the results depend on the processing

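Counts of mast cell genes past 2-fold had the same value under scaling by library totals, a median-of-ratios scaling and a pseudocount of 10 in all 4 comparisons. Without the expression filter the naive KO-labelled count was 2 in place of 1, and that of HDM in KO-labelled skin 6 in place of 5, both through Fcer1a, and limma's treatment term called 4 in place of 0. Over all genes the treatment term called 478 of 11624, or 1293 of 17633 without the filter and 15 of 11624 without the intensity trend. The genotype term called 0, or 68 of 17633 without the filter and 2 of 11624 with a pseudocount of 10. Of 96 recomputed differences of single mast cell genes, 89 moved by less than their counting interval, 5 moved by more under scaling by library totals, 2 under a pseudocount of 10, and none changed sign. Scaling by library totals moved the median of all genes by 0.098 in the HDM and 0.124 in the naive comparison of KO-labelled with WT skin. No paired analysis was possible because each group has 1 library. Leaving out a library ends its comparisons and leaves the additive fit without residual degrees of freedom. Depth limits Fcer1a, under 50 reads in every library, and Ms4a2 under HDM.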
